A study of Mus musculus with 4 samples.

Results

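Genes of the low-density lipoprotein (LDL) receptor family and of Reelin signalling were followed in RNA immunoprecipitation sequencing (RIP-Seq) of the newborn mouse retina. They are *Reln*, *Lrp8*, *Vldlr*, *Dab1*, *Lrp1*, *Lrp2*, *Lrp4*, *Lrp5* and *Lrp6*, 9 of the 52550 genes in the count table, taken by their symbol. The group was put together around *Lrp8*, which was selected on its measured level, high in RIP over input, so the values of these 9 genes in RIP and input are given as a description and carry no test. Retinas of wild type C57BL/6 mice at postnatal day 0 were dissociated with papain, and RNA was sequenced before the pulldown (input) and after pulldown with an antibody against YTHDF2 (RIP), in 2 biological replicates each. All 4 libraries therefore share genotype, strain, tissue and age, and their labels differ only in the pulldown and the replicate number. The control IgG pulldown named in the study's methods was not analysed here, so a transcript that sticks to the beads or to any antibody cannot be told apart from one held by YTHDF2.

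YTHDF2 is a cytoplasmic reader of N6-methyladenosine (m6A), a methyl mark on adenosines of mRNA, and is known to shorten the life of the transcripts it binds. Reelin, the product of *Reln*, is a secreted glycoprotein that binds the receptors Lrp8 (also called ApoER2) and Vldlr on neurons, whereupon the adaptor Dab1 on the receptor tails is phosphorylated by Src family kinases and hands the signal to Crk proteins and to phosphatidylinositol 3-kinase. The pathway is best known for placing neurons and shaping dendrites in the developing brain, and in the retina Dab1 is a familiar marker of AII amacrine cells. The other members of the receptor family share the extracellular ligand-binding repeats but serve other tasks, which are named with each gene.

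m6A is laid down mostly at adenosines within short motifs of which GGAC is among the commonest, and the mark is densest around stop codons. To show what such motifs look like in these transcripts, the GGAC nearest to the stop codon is printed below for the ligand, both Reelin receptors, the adaptor and the pair *Lrp5* and *Lrp6*. The windows of 21 bases are written 5′ to 3′ as DNA on the sense strand, from the longest protein-coding transcript of each gene in GENCODE M21 (GRCm38), with the GGAC in capitals. A match is a string of letters, and no m6A was measured in these libraries.

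Reln: aagatgaaGGACttggcgaac
Lrp8: aagatgatGGACtgccctgag
Vldlr: cttctgtaGGACacacatacc
Dab1: gtagcaaaGGACatcaaatcc
Lrp5: ccctgcacGGACtcgtcctga
Lrp6: ccctgcacGGACtcctcctga

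The *Lrp8* window, at chr4:107872292-107872312 on the plus strand, lies at the end of the coding sequence, with the A of GGAC 9 bases before the last base of the stop codon. In *Lrp5* (chr19:3585030-3585050, minus strand) and *Lrp6* (chr6:134450786-134450806, minus strand) the A lies 10 bases before the end of the stop codon, which closes both windows. The *Lrp5* and *Lrp6* windows differ by G15C alone, where *Lrp5* is named first and positions count from 1 at the 5′ end of the window. The *Vldlr* site (chr19:27248001-27248021, plus strand) lies 51 bases before the last base of the stop codon. In *Reln* (chr5:21885362-21885382, minus strand) the nearest site lies in the 3′ UTR, 101 bases past the stop codon. *Dab1* stands apart from the others, since its nearest site (chr4:104742381-104742401, plus strand) lies 894 bases into the 3′ UTR.

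A GGAC within 200 nt of the stop codon was present in 8 of the 9 genes, *Dab1* being the exception. The motif is common, however: searched on the sense strand only, it occurred at least once in 99.7% of the 11953 tested protein-coding genes, and within 200 nt of the stop codon in 82.1% of the 11934 with an annotated stop codon. *Dab1* held 9 GGAC in 5278 nt, or 1.71 per kb, which placed it at the 4.45th percentile of tested protein-coding genes for motif density. *Vldlr* followed with 20 in 7971 nt, or 2.51 per kb, at the 14.6th percentile. *Lrp8* held 40 in 6627 nt, or 6.04 per kb, at the 83.5th percentile, and its coding part held 12.4 per kb. The annotated 5′ end of that *Lrp8* transcript is incomplete. *Lrp5*, with 61 in 5161 nt (11.8 per kb), and *Lrp1*, with 138 in 14888 nt (9.27 per kb), were at the 99.8th and 98.7th percentiles. Across the 11953 genes the density of GGAC per kb had little relation to the log2 fold change of RIP over input (Spearman's rho 0.0765, over genes that share the same 4 libraries). The number of GGAC per transcript had a rho of 0.482 with the log2 fold change over the same genes. That number also rose with transcript length (rho 0.786), and the part of each was not tested.

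Library totals lay between 19530226 and 39499994 counts, but counts on protein-coding genes were only 2083594 to 4175459, and a pair of genes, AY036118 and CT010467.1, took up to 55.5% of an input and 85.3% to 87.8% of the RIP libraries. Of 13632 genes with enough counts to be tested, 474 (3.48%) were higher in RIP and 1333 (9.78%) lower at an adjusted p below 0.05 by edgeR's quasi-likelihood test with Benjamini-Hochberg adjustment over all tested genes. Scaled by library size alone, 845 were higher and 998 lower, and the median over all tested genes, -0.05 on the log2 scale, moved by 0.33. With the replicate number as a block, 721 were higher and 1602 lower. Retinal markers were present: in CPM, counts scaled to library size with TMM factors, the sum of 9 retinal ganglion cell markers was 62.6 and 52.5 CPM in the inputs and 28.4 and 25.8 CPM in RIP, with 2 of the 9 lower, and that of 8 progenitor markers 935 and 601 CPM in the inputs and 626 and 609 CPM in RIP, with 2 of the 8 lower. Photoreceptor precursor markers summed to 116 and 105 CPM against 136 and 150 CPM, and amacrine and horizontal cell markers to 77.8 and 131 CPM against 65.2 and 58.5 CPM (1 of 8 lower). Pigment epithelium markers summed to 4.57 to 5.28 CPM in all libraries with *Rpe65*, *Tyr*, *Tyrp1*, *Pmel* and *Mlana* at 0, lens markers to at most 0.0874 CPM with *Cryaa*, *Cryba2*, *Crybb1*, *Crygs*, *Lim2* and *Mip* at 0, and red blood cell markers to at most 0.990 CPM with *Hbb-bt* at 0. Vessel markers summed to 33.4 and 32.3 CPM in the inputs and 65.4 and 67.2 CPM in RIP with *Esam* and *Tie1* at 0, and the part of any of these lists in the values below was not tested.

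Together the 9 genes held 2672 and 3005 counts in the inputs and 5702 and 5023 counts in the RIP libraries, although the RIP libraries were the smaller ones. Their share of all protein-coding counts was 0.0654% and 0.0720% in the inputs and 0.259% and 0.241% in RIP. In 8 of the 9 genes both RIP libraries lay above both inputs in CPM, *Dab1* being the exception, and no member had both RIP libraries below both inputs. Over all tested genes both RIP libraries lay above both inputs in 29.6% and below both in 31.3%. All members are protein-coding with transcripts of at least 5000 nt. Of 2855 tested genes of that kind, 1463 had both RIP libraries above both inputs and 224 had both below. The members' log2 fold changes ran from -0.50 to 1.97 with a median of 1.31, and without *Lrp8* the median was 1.26.

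**Figure D1:**
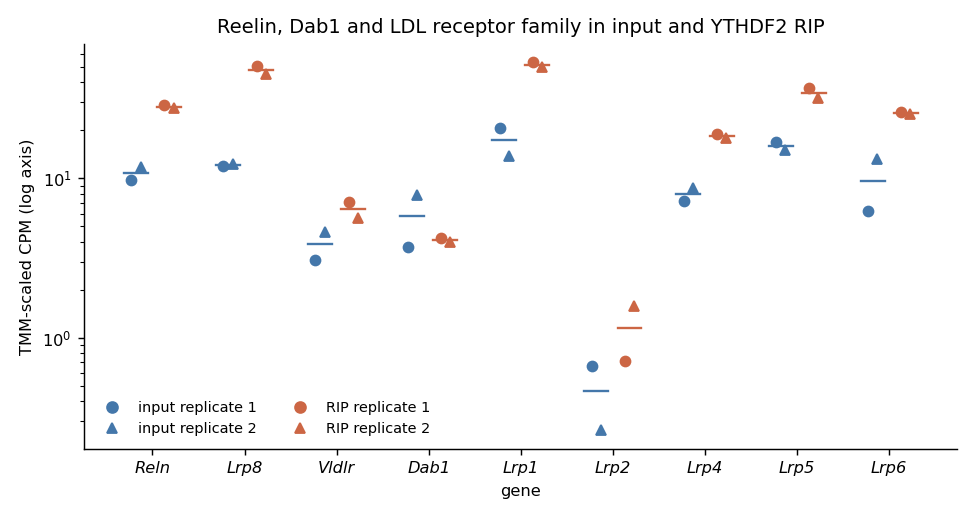
TMM-scaled CPM (log axis) of the 9 genes in each library, with inputs in blue, RIP libraries in orange, circles for replicate 1, triangles for replicate 2 and a bar at the mean of each pair. *Lrp8* sits at 12.0 and 12.3 CPM in the inputs and 50.5 and 45.0 CPM in RIP, whereas the points of *Dab1* overlap.

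*Reln* (ENSMUSG00000042453, chromosome 5 from 21884454 to 22344702, minus strand) encodes the ligand of the pathway. It had 324 and 406 input counts against 723 and 664 in RIP, or 9.72 and 11.8 CPM against 28.7 and 27.6 CPM. Both RIP libraries were thus well above both inputs, and the inputs differed from each other by less than the groups did. The mean level was 10.8 ± 1.49 CPM in input and 28.1 ± 0.744 CPM in RIP (SD, n = 2), and the log2 fold change was 1.38 ± 0.336 (SE), a 2.61-fold difference.

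*Lrp8* (ENSMUSG00000028613, chromosome 4 from 107802261 to 107876840, plus strand) encodes the Reelin receptor that is found mainly in the nervous system. It had 399 and 423 input counts against 1275 and 1082 in RIP, which gave 12.0 and 12.3 CPM against 50.5 and 45.0 CPM. In CPM its inputs were the closest of the 9, while in FPKM those of *Lrp5* were, and its log2 ratio of RIP over input was 2.08 in replicate 1 and 1.87 in replicate 2. Its mean was 12.1 ± 0.254 CPM in input and 47.8 ± 3.93 CPM in RIP (SD, n = 2), a 3.93-fold difference with a log2 fold change of 1.97 ± 0.337 (SE), at the 98.5th percentile of all tested genes. The antisense genes *Lrp8os1* and *Lrp8os2* overlap *Lrp8* and held at most 7 and 11 counts in any library.

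*Vldlr* (ENSMUSG00000024924, chromosome 19 from 27216484 to 27254231, plus strand) encodes the other Reelin receptor, which also binds apolipoprotein E. It was counted 103 and 158 times in the inputs and 179 and 136 times in RIP, or at 3.09 and 4.60 CPM against 7.10 and 5.65 CPM. The groups did not overlap in CPM, but input replicate 2 came close to RIP replicate 2. The log2 fold change was 0.73 ± 0.396 (SE), made up of 1.20 in replicate 1 and 0.30 in replicate 2. The log2 ratio of RIP over input was larger for *Lrp8* than for *Vldlr* by 0.88 in replicate 1 and by 1.57 in replicate 2, and this difference was not tested because *Lrp8* was selected for its value. The *Vldlr* log2 fold change was 1.04 when input replicate 2 was left out and 0.47 when input replicate 1 was.

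*Dab1* (ENSMUSG00000028519, chromosome 4 from 103619359 to 104744844, plus strand), the adaptor that both Reelin receptors use, was the single member whose level was not higher in the pulldown. It had 124 and 271 input counts against 107 and 96 in RIP, or 3.72 and 7.90 CPM against 4.24 and 3.99 CPM. The RIP libraries lay between the inputs, so the groups overlapped. Its log2 fold change was -0.50 ± 0.448 (SE), with 0.19 in replicate 1 and -0.98 in replicate 2, and the direction hung on 1 library, since leaving out input replicate 2 gave 0.14 and leaving out input replicate 1 gave -0.94. *Reln* exceeded *Dab1* in the log2 ratio by 1.37 and 2.20 in replicates 1 and 2, and *Lrp8* exceeded it by 1.89 and 2.85.

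**Figure D2:**
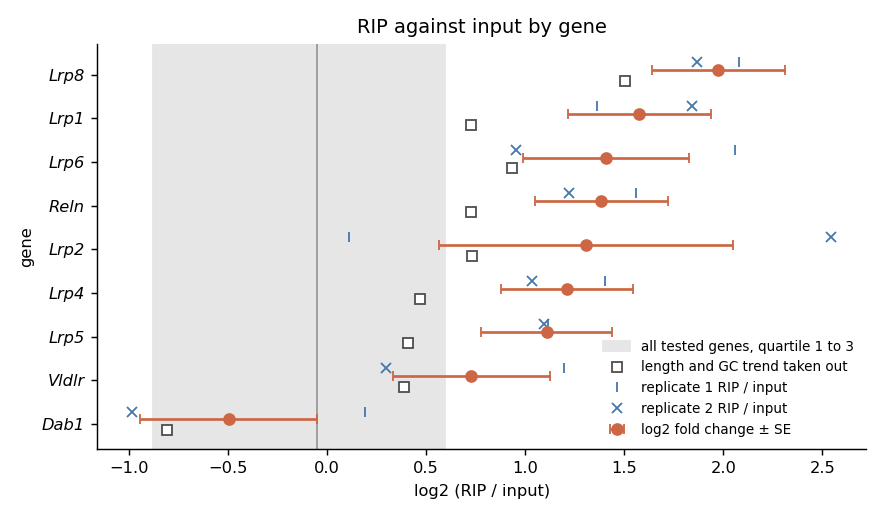
Log2 ratio of RIP over input for each gene, with the log2 fold change ± SE as orange points, the 2 replicates as blue marks and the value after a trend on transcript length and GC content was taken out as open squares. The grey band spans the middle 50% of all tested genes, from -0.88 to 0.59, and of the orange points only *Dab1* lies inside it.

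*Lrp1* (ENSMUSG00000040249, chromosome 10 from 127538161 to 127621148, minus strand) encodes a very large endocytic receptor that clears lipoproteins and proteases and also signals in neurons and glia. Its counts were 690 and 475 in the inputs and 1343 and 1196 in RIP, which gave 20.7 and 13.8 CPM against 53.2 and 49.7 CPM. It was the most counted member in every library except input replicate 2, where *Lrp5* had 514 counts. The RIP libraries were close together and more than 2-fold above the higher input, and the log2 fold change was 1.58 ± 0.360 (SE), with means of 17.3 ± 4.85 and 51.5 ± 2.48 CPM (SD, n = 2).

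*Lrp2* (ENSMUSG00000027070, chromosome 2 from 69424340 to 69586065, minus strand) encodes megalin, an endocytic receptor of epithelia that in the eye is known from the ciliary margin and pigment epithelium. At 22 and 9 input counts against 18 and 38 in RIP it was the least counted member, at 0.660 and 0.262 CPM against 0.713 and 1.58 CPM. The raw counts overlapped, and in CPM the lower RIP library was barely above the higher input. The log2 fold change of 1.31 ± 0.741 (SE) had the largest error of the 9, and its replicates gave 0.11 and 2.55. Leaving out input replicate 2 gave 0.78, input replicate 1 gave 2.11, RIP replicate 2 gave 0.74 and RIP replicate 1 gave 1.89.

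*Lrp4* (ENSMUSG00000027253, chromosome 2 from 91457511 to 91513779, plus strand) encodes the agrin receptor of the neuromuscular junction, which also restrains Wnt signalling. It had 239 and 299 input counts against 478 and 429 in RIP, or 7.17 and 8.71 CPM against 18.9 and 17.8 CPM. The groups were well apart in both replicates, and the log2 fold change was 1.21 ± 0.334 (SE).

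*Lrp5* and *Lrp6* encode the closely related co-receptors that carry Wnt signals with Frizzled proteins, and *Lrp5* is needed for the growth of retinal vessels. *Lrp5* (ENSMUSG00000024913, chromosome 19 from 3584828 to 3686564, minus strand) had 564 and 514 input counts against 926 and 771 in RIP, or 16.9 and 14.98 CPM against 36.7 and 32.1 CPM. Both of its replicates gave nearly the same log2 ratio, 1.12 and 1.10, and its log2 fold change was 1.11 ± 0.332 (SE). *Lrp6* (ENSMUSG00000030201, chromosome 6 from 134446476 to 134566965, minus strand) had 207 and 450 input counts against 653 and 611 in RIP, or 6.21 and 13.1 CPM against 25.9 and 25.4 CPM. Its RIP libraries were almost equal while its inputs differed about as much as *Dab1* did, and the log2 fold change of 1.41 ± 0.419 (SE) became 2.04 with input replicate 2 left out and 0.97 with input replicate 1 left out. The log2 ratio of *Lrp5* was below that of *Lrp6* by 0.94 in replicate 1 and above it by 0.14 in replicate 2, so the order of this pair was not settled.

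The input replicates differed from each other along GC content. Over 6637 protein-coding genes counted at least 50 times in each of the 4 libraries, the log2 ratio of input replicate 2 over input replicate 1 was lower at higher GC percentage of the transcript (Spearman's rho -0.643 across genes), whereas for the RIP replicates rho was 0.00996. Its median was 0.74 for transcripts under 47% GC and -0.57 for those over 55%. Among the members, *Vldlr*, *Lrp6* and *Dab1* had the lowest GC content (43.8%, 46.0% and 46.2%) and log2 ratios between the inputs of 0.57, 1.08 and 1.08. *Lrp5* and *Lrp1* had the highest (58.6% and 57.9%) and gave -0.18 and -0.58. *Lrp8*, at 47.4% GC, gave 0.04. The order was not strict, since *Lrp4*, at 54.7% GC, gave 0.28 and the sparsely counted *Lrp2*, at 49.1%, gave -1.30. The part of this difference in the RIP over input values was not tested.

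The members also share long transcripts, which the choice by symbol did not use. Their longest protein-coding transcripts ran from 5161 nt (*Lrp5*) to 15460 nt (*Lrp2*), with a median of 7971 nt beside 3339 nt for the tested protein-coding genes, and *Lrp2*, *Lrp1* and *Reln* were at the 99.6th, 99.5th and 98.5th percentiles of length. Length moved with the pulldown over the whole table: Spearman's rho between length and log2 fold change was 0.487 across 11953 protein-coding genes, which share the same 4 libraries. Of 2855 tested protein-coding genes of at least 5000 nt, 229 were higher in RIP and 22 lower, and their median log2 fold change was 0.52. Of 2650 under 2000 nt, 20 were higher and 706 lower, and their median was -0.94. The members' own median was 1.31. With a smooth trend on length and GC content taken out, *Lrp8* kept the highest value, 1.50, and was the single member at 1 or more, while *Lrp6* was at 0.93, *Lrp1*, *Lrp2* and *Reln* at 0.73 each, *Lrp4* at 0.47, *Lrp5* at 0.41, *Vldlr* at 0.39 and *Dab1* at -0.81.

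**Figure D3:**
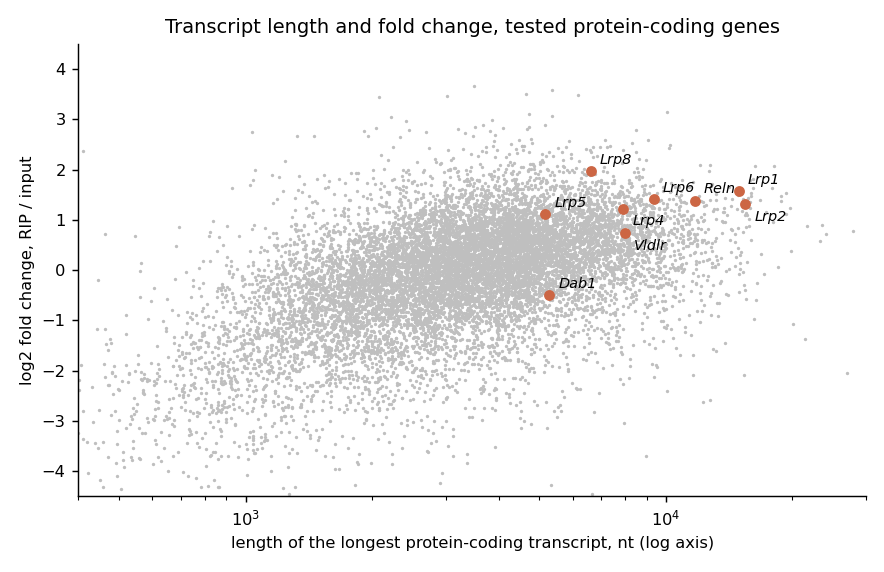
Log2 fold change of RIP over input against the length of the longest protein-coding transcript (nt, log axis) for 11870 tested protein-coding genes in grey, with the 9 genes in orange and 83 genes outside the axes left off. The grey cloud climbs with length, *Lrp8* (6627 nt) lies near its upper edge and *Dab1* (5278 nt) below 0.

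Levels of different genes can be compared only per length, for which the deposited FPKM values were used. In the inputs *Lrp5* had the highest level with 1.40 FPKM in both libraries, followed by *Lrp8* with 0.912 and 1.06 FPKM (mean 0.987 ± 0.105, SD, n = 2). *Lrp1* had 0.939 and 0.710 FPKM, *Lrp4* 0.545 and 0.753 FPKM, *Dab1* 0.371 and 0.906 FPKM, and *Lrp6* 0.363 and 0.871 FPKM. *Reln* had 0.326 and 0.449 FPKM, *Vldlr* 0.243 and 0.412 FPKM, and *Lrp2* 0.0306 and 0.0135 FPKM. In this order the ranges of neighbours over the 2 inputs overlapped, except that both values of *Lrp5* lay above both of *Lrp8* and both of *Vldlr* above both of *Lrp2*. Within each input taken alone, *Dab1* was also above *Lrp6*, *Lrp6* above *Reln* and *Reln* above *Vldlr*. *Lrp5* was at the 73.3rd percentile of tested protein-coding genes and *Lrp2* at the 0.544th, so these were low to moderate levels. Because whole retinas were used, few cells of a type and little RNA per cell cannot be told apart.

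Within the RIP libraries the order by FPKM differed from that of the input means at its top, in its middle and near its bottom. *Lrp8* was first in both, with 5.71 and 3.79 FPKM, ahead of *Lrp5* with 4.48 and 2.93 FPKM. *Dab1*, which had rank 5 and rank 3 in the inputs, had rank 8 of 9 in both RIP libraries with 0.638 and 0.435 FPKM, below *Vldlr* with 0.838 and 0.492 FPKM. *Lrp6* had rank 4 and *Lrp4* rank 5 in both RIP libraries, while by mean input FPKM *Lrp4* had rank 4 and *Lrp6* rank 6. *Lrp2* was last in all 4 libraries.

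**Figure D4:**
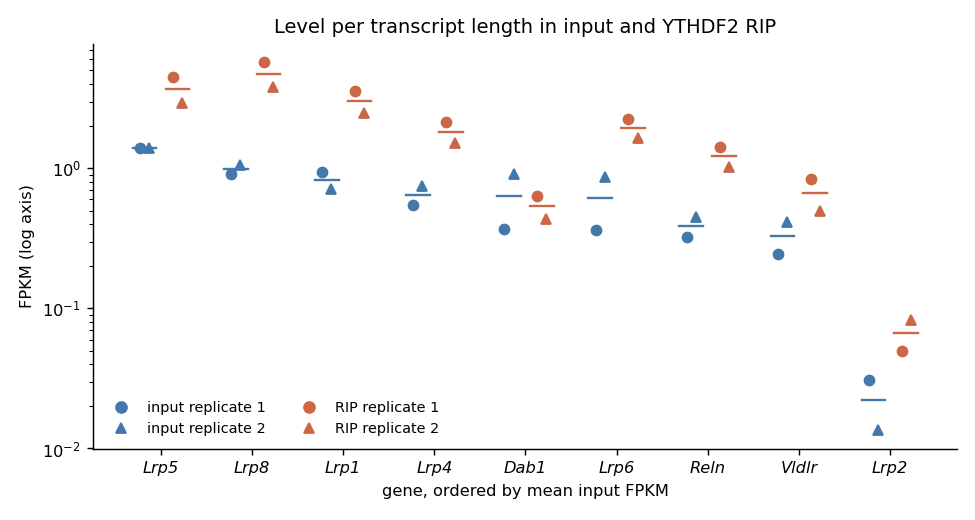
FPKM (log axis) of the 9 genes in each library, ordered by the mean of the inputs, with inputs in blue, RIP libraries in orange, circles for replicate 1, triangles for replicate 2 and a bar at each mean. *Lrp5* is highest in the inputs at 1.40 FPKM and *Lrp8* highest in RIP at 5.71 and 3.79 FPKM.

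The genes that work with these receptors were compared between RIP and input in 6 lists, 70 genes of which 56 could be tested. The test was edgeR's quasi-likelihood test adjusted over all tested genes. The lists were chosen with earlier results of these data known, so their calls and medians are no independent test of the lists. Of the 56 genes, 4 were higher in RIP (*Gsk3b*, *Crk*, *Adamts4* and *Kremen1*) and 1 was lower (*Cfl1*), beside 3.48% higher and 9.78% lower among all tested genes. With the replicate block 5 were higher and 2 lower. The median log2 fold change of the 56 was 0.49, beside -0.05 for all tested genes and 0.04 for protein-coding genes.

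The relay behind Dab1 held 21 tested genes with a median of 0.46, of which 2 were higher and 1 lower by edgeR. DESeq2 called 5 higher and 2 lower, and limma called 4 higher on log2(FPKM + 0.1) and 5 higher on log2(FPKM + 1), with 1 lower each. Over all genes in these fits, DESeq2 called 692 higher and 1456 lower of 23345. Limma called 557 higher and 1323 lower of 14493 on log2(FPKM + 0.1), and 602 and 1332 on log2(FPKM + 1). *Gsk3b*, a kinase that Reelin signalling holds in check, had 554 and 1404 input counts against 4111 and 4021 in RIP, the largest rise among the 56. Its log2 fold change was 2.52 ± 0.474 (SE) with an adjusted p of 0.0119 by edgeR, and the inputs differed from each other more than the RIP libraries did. *Crk*, an adaptor that docks on phosphorylated Dab1, rose from 304 and 492 counts to 1113 and 1100, a log2 fold change of 1.94 ± 0.371 (adjusted p = 0.0127 by edgeR). *Cfl1*, which encodes the actin-severing protein cofilin, had 8754 and 6213 input counts against 1796 and 1268 in RIP. It fell by 1.84 ± 0.381 on the log2 scale (adjusted p = 0.0171 by edgeR), from 222 ± 57.6 to 62.0 ± 13.1 CPM (SD, n = 2), and it was the most abundant gene of its list in the inputs by FPKM.

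Among ligands and Reelin-cleaving proteases 1 of 7 tested genes was higher and 0 were lower, with a median of 0.20. *Adamts4*, a secreted protease able to cut Reelin, had 109 and 144 input counts against 293 and 242 in RIP, and its log2 fold change was 1.54 ± 0.363 (adjusted p = 0.0278 by edgeR). *Apoe*, the lipoprotein ligand with the highest input level of the list, had 447 and 312 counts against 243 and 363, a log2 fold change of 0.14 ± 0.383 that did not pass the test. Among partners of *Lrp4*, *Lrp5*, *Lrp6* and *Lrp2*, 1 of 4 tested genes was higher and 0 were lower, with a median of 0.43. *Kremen1*, a receptor for Dickkopf proteins that removes Lrp6 from the surface, rose from 254 and 201 to 481 and 441 counts, a log2 fold change of 1.47 ± 0.341 (adjusted p = 0.0261 by edgeR). *Dkk3*, the most abundant of that list, was at 0.18 ± 0.328 and did not pass.

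The other 3 lists had 0 calls by edgeR at this limit. Unadjusted p was under 0.05 with a higher level in RIP for 6 genes of the receptor family and 1 adaptor. The share of all tested genes passing that unadjusted limit is not given here, so these numbers are no result for the lists. Under a stricter rule, which also sets a limit of 1 on the log2 scale, 1286 of 13632 tested genes were higher. DESeq2 called 1 of the receptor family higher, limma called 1 on log2(FPKM + 0.1) and 2 on log2(FPKM + 1), and all of these called 0 adaptors and 0 chaperone and turnover genes. All 8 further members of the LDL receptor family were tested, and in each both RIP libraries lay above both inputs. The same held for 29.6% of all tested genes and for 3811 of the 11953 tested protein-coding genes. Among the 2855 protein-coding genes of at least 5000 nt it held for 1463. The 8 relatives are protein-coding with a median transcript length of 4236 nt, and the lowest adjusted p among them was 0.0759 by edgeR. Their median log2 fold change was 1.11, and the highest was 2.07 ± 1.03 for *Lrp1b*, which had 1 and 7 input counts against 13 and 12 in RIP. *Ldlrad3*, the most abundant of them, had 416 and 290 input counts against 482 and 565 in RIP, a log2 fold change of 1.02 ± 0.360. The 11 adaptors of the receptor tails had a median of 0.40, and *Mapk8ip1*, a scaffold of the JNK pathway and their most abundant gene, was at -0.31 ± 0.368. The 5 tested chaperone and turnover genes had a median of -0.0058, and *Lrpap1*, the chaperone that keeps ligands off the receptors during their synthesis, was at -0.12 ± 0.359.

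All 5 calls in the lists were lost without RIP replicate 1 or without RIP replicate 2. Each of these fits left 1 library in the RIP group, and calls in the whole table were then far fewer in both directions. The differences themselves stayed about as large, with log2 fold changes of 2.60 and 2.56 for *Gsk3b*, 2.04 and 1.98 for *Crk*, 1.52 and 1.71 for *Adamts4*, 1.55 and 1.60 for *Kremen1* and -1.96 and -1.54 for *Cfl1* without RIP replicates 1 and 2. The median log2 fold change of the pathway genes, 0.49 in the main fit, was 0.53 over 55 genes once input replicate 1 was dropped. Dropping input replicate 2 gave 0.39 over 56 genes. In each of these fits the lone library was assumed to vary like the other group.

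**Figure D5:**
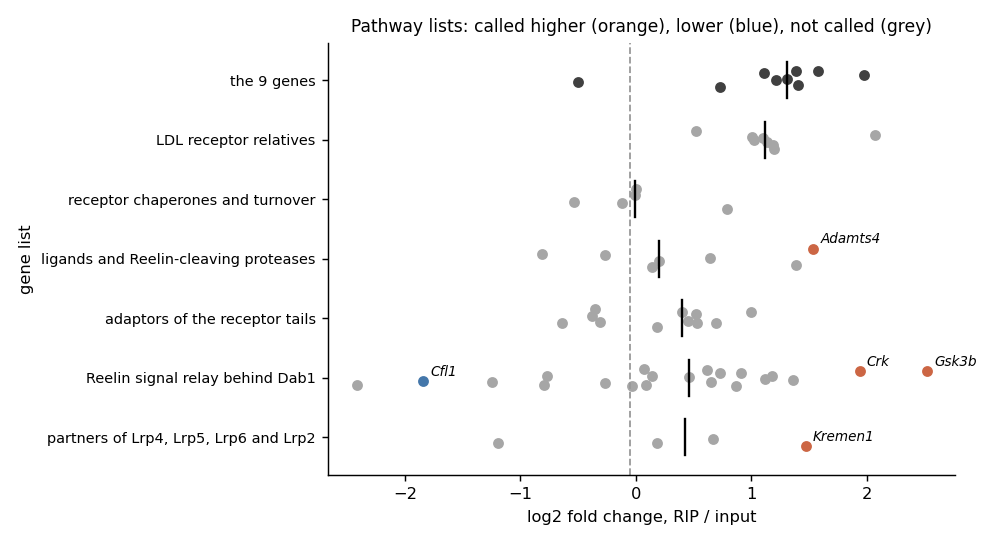
Log2 fold change of RIP over input for the 9 genes and for each tested gene of the 6 pathway lists, with vertical bars at list medians and a dashed line at the median of all tested genes (-0.05). Genes with an adjusted p below 0.05 are named, in orange where higher (*Gsk3b*, *Crk*, *Adamts4*, *Kremen1*) and blue where lower (*Cfl1*), and all 8 LDL receptor relatives lie to the right of 0.

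The pattern of *Lrp8* over the 4 libraries was matched most closely by *Pon2*, *Fam212b*, *Nbas*, *Uhrf1bp1* and *Trmt61a*. Likeness was the Euclidean distance between log2 CPM values centred on their mean, over 4 libraries and 4789 protein-coding genes with a mean of at least 5 CPM. Distances were 0.138, 0.168, 0.170, 0.179 and 0.191, and the log2 fold changes 1.96, 2.00, 1.95, 1.88 and 1.99. *Pon2*, which encodes a paraoxonase, had 212 and 228 input counts against 631 and 612 in RIP. With only 4 libraries, such likeness says no more than that these genes had even inputs and a similar distance to RIP.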

How the data were processed

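Input and anti-YTHDF2 RIP RNA of P0 retina was sequenced in 2 biological replicates each (stranded TruSeq kit). The deposited tables hold counts per gene, which the authors did not normalize, and FPKM values, scaled by the authors for gene length and library size. The submitters' processing notes name STAR 2.5, HTSeq and GRCm38. The annotation, the strand setting and the FPKM program are not given in the sources used here.

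The fit was made with edgeR 4.0.16 under R 4.3.3 (filterByExpr with minimum count 10 and minimum total 15, TMM, glmQLFit, glmQLFTest, Benjamini-Hochberg over 13632 genes, limit 0.05). Log2 fold changes are RIP over input, and standard errors were derived from the F statistic. No p is given for the 9 genes. With 2 against 2, a two-sided exact permutation test cannot go below 0.333. GENCODE M21 held 52403 of the 52550 identifiers. The longest protein-coding transcript gave length, GC content and GGAC matches. Motif density, level and length percentiles are among tested protein-coding genes.

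Counts varied between replicates beyond counting error (chi-square per degree of freedom 167 for inputs and 22.6 for RIP over 6858 genes counted at least 50 times in each), so replicates rather than depth set the precision.

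The members and all gene lists were chosen with earlier results of these data known. Besides the 9 genes, named genes are those of the pathway lists at an adjusted p below 0.05, the gene of each list with the highest mean input FPKM, and the 5 genes most like *Lrp8*. *Lrp1b*, *Rap1a*, *Src*, *Crkl*, AY036118, CT010467.1 and the overlapping antisense genes were named after their values were seen. Most other list genes are given as counts and medians only.

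The sample labels number the replicates, and the design text of the series puts an input and a pulldown in each, which is the only source for a pairing. The main fit left the number out. The deviations of equal-numbered libraries had a Spearman correlation of -0.0364 and a Pearson r of -0.0348 across genes. Alternatives were library size alone, upper quartile, DESeq2 1.42.0, other count filters, limma 3.58.1 on log2(FPKM + 0.1) and log2(FPKM + 1), the replicate block, a fold change rule, a trend on length and GC content (mgcv 1.9.3), and each library left out. Scripts were tested on simulated data.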

Additional observations from a re-analysis of the deposited data

How the results depend on the processing

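The median log2 fold change of the 9 genes, 1.31, was 1.59 with library size alone and 0.73 with the length and GC trend taken out. On log2(FPKM + 1) the median was 0.82, over 8 members without *Lrp2*. That of the 56 pathway genes, 0.49, was 0.83 with library size alone and 0.23 with the trend taken out. On log2(FPKM + 0.1) it was 0.71, over the 51 pathway genes in that fit. *Lrp8* was the highest member in every setting except without input replicate 1 (*Lrp2*) and without input replicate 2 (*Lrp6*), and *Dab1* the lowest in every setting. Because *Lrp8* was selected for its high value in these same libraries, its rank is a description and no test. The pathway calls were 4 higher and 1 lower. There were 8 higher with library size alone, and 13 higher and 2 lower by a log2 fold change of at least 1 with unadjusted p under 0.05. DESeq2, over 65 pathway genes, gave 8 higher and 2 lower. Over 51 pathway genes limma gave 7 higher on log2(FPKM + 0.1) and 9 higher on log2(FPKM + 1). With at least 10 counts in every library, 2 of 51 pathway genes were lower. Over all tested genes 474 were higher and 1333 lower. The number higher was 845 with library size alone and 292 without a count filter, and the fold change rule gave 1286 higher and 2344 lower. DESeq2 gave 692 higher and 1456 lower of 23345 genes. Of 14493 genes, limma gave 557 higher and 1323 lower on log2(FPKM + 0.1), and 602 and 1332 on log2(FPKM + 1). With the replicate block, which pairs input and RIP of one number, 721 were higher in all and 2 pathway genes lower, and with the block and the trend together the medians were 0.65 for the 9 genes and 0.20 for the pathway genes. Leaving out 1 library gave 8 to 2537 higher and 112 to 2766 lower genes in all, and 0 to 22 higher and 0 to 4 lower pathway genes. The trend alternatives gave values only and no calls. The cause of these shifts was not tested.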

Other observations

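Other genes of the relay behind Dab1 came close to the limit in edgeR without passing it, and are named here because of their values. *Src* and *Crkl* passed it with DESeq2 and with limma on both FPKM scales. With the replicate block they did not pass (adjusted p = 0.0696 and 0.0948 by edgeR). *Rap1a* passed it with DESeq2 and with the replicate block but not with limma. *Src*, one of the kinases that phosphorylate Dab1, had 274 and 206 input counts against 392 and 399 in RIP (log2 fold change 1.18, adjusted p = 0.0584 by edgeR). *Crkl*, a close relative of *Crk*, had 278 and 282 input counts against 402 and 483 in RIP (1.12, adjusted p = 0.0611 by edgeR). *Rap1a*, a small GTPase activated further down, had 51 and 207 input counts against 24 and 11 in RIP (-2.41, adjusted p = 0.0583 by edgeR), and its inputs differed widely from each other.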
